A study of Rattus norvegicus with 15 samples.

Results

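Transcripts of the protein kinase C family were measured in the midbrain ventral tegmental area of ethanol-drinking and water-drinking rats. Of the family, 8 genes were taken, Prkca, Prkcb, Prkcd, Prkce, Prkch, Prkci, Prkcq and Prkcz, out of 14224 genes that the array annotation names with a single symbol. Every probe set (the group of short probes that together measure a transcript) carrying exactly 1 of these symbols was used, which gave 13 probe sets. Prkci and Prkcb had 3 each, Prkch had 2 and the other 5 genes had 1. After a filter that kept probe sets whose mean over all arrays reached a log2 value of 6.94, 10 of the 13 remained, with at least 1 for each of the 8 genes. The 3 that fell below it, 1 of Prkch and 2 of Prkci, are described separately and carry no call. Below, a gene is called measured if a kept probe set carries its symbol alone.

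Protein kinases C are serine and threonine kinases that receptors switch on through the membrane lipid diacylglycerol. The classical isoforms (alpha and beta, from Prkca and Prkcb) need calcium as well as diacylglycerol, the calcium-independent isoforms (delta, epsilon, eta and theta, from Prkcd, Prkce, Prkch and Prkcq) respond to diacylglycerol alone, and the atypical isoforms (iota and zeta, from Prkci and Prkcz) respond to neither and are steered by protein partners. In neurons these kinases phosphorylate receptors, channels and transporters, among them GABA-A receptors and the dopamine transporter, and mice lacking the epsilon isoform drink less alcohol.

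The series title names alcohol-preferring rats (selectively bred for drinking much alcohol by choice) and drinking with loss of control. Low-drinking lines also appear in the design text. The labels separate only ethanol-treated rats, of which 7 were analysed here, from 8 age-matched controls that drank water. Each array came from 1 animal, so the spread given is between animals. The sources used here do not state sex, age in weeks, how long the rats drank or when they last drank. RNA from the ventral tegmental area was amplified from 25 ng in 2 cycles and hybridised to Affymetrix rat arrays, and the deposited values are log2 signals, so a difference of 1 is a 2-fold change. Levels of different probe sets were not read as differences in transcript amount, because each set has its own brightness. Dim and bright refer to a set's signal only. Th, which makes the dopamine precursor, averaged 14.94 ± 0.22 log2 units (SD, n = 7) in the ethanol group and 14.80 ± 0.26 (SD, n = 8) in the water group. Slc6a3, Slc18a2 and Ddc, which transport or make dopamine, averaged 14.51, 14.18 and 13.63 log2 units in water rats, so the defining transcripts of dopamine neurons were present.

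Most of the family showed no difference that passed the test. Of the 10 kept probe sets, 1 passed the test (limma, Benjamini-Hochberg adjusted p below 0.05), that of Prkcd, which was higher in ethanol rats. No member passed as lower. Across the array 0.929% of the 18625 kept probe sets passed, and 0.387% passed as higher. The family was chosen with the Prkcd call already known, so its 1 in 10 is not set against that share as evidence. The median difference (ethanol minus water) over the 10 kept member probe sets was -0.0050 log2 units, beside 0.0062 over all kept probe sets, and the median size of a difference was 0.045 log2 units beside 0.052. In each of the 13 member probe sets the ranges of the ethanol and water rats overlapped, while 0.623% of all kept probe sets had groups without overlap.

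**Figure D1:**
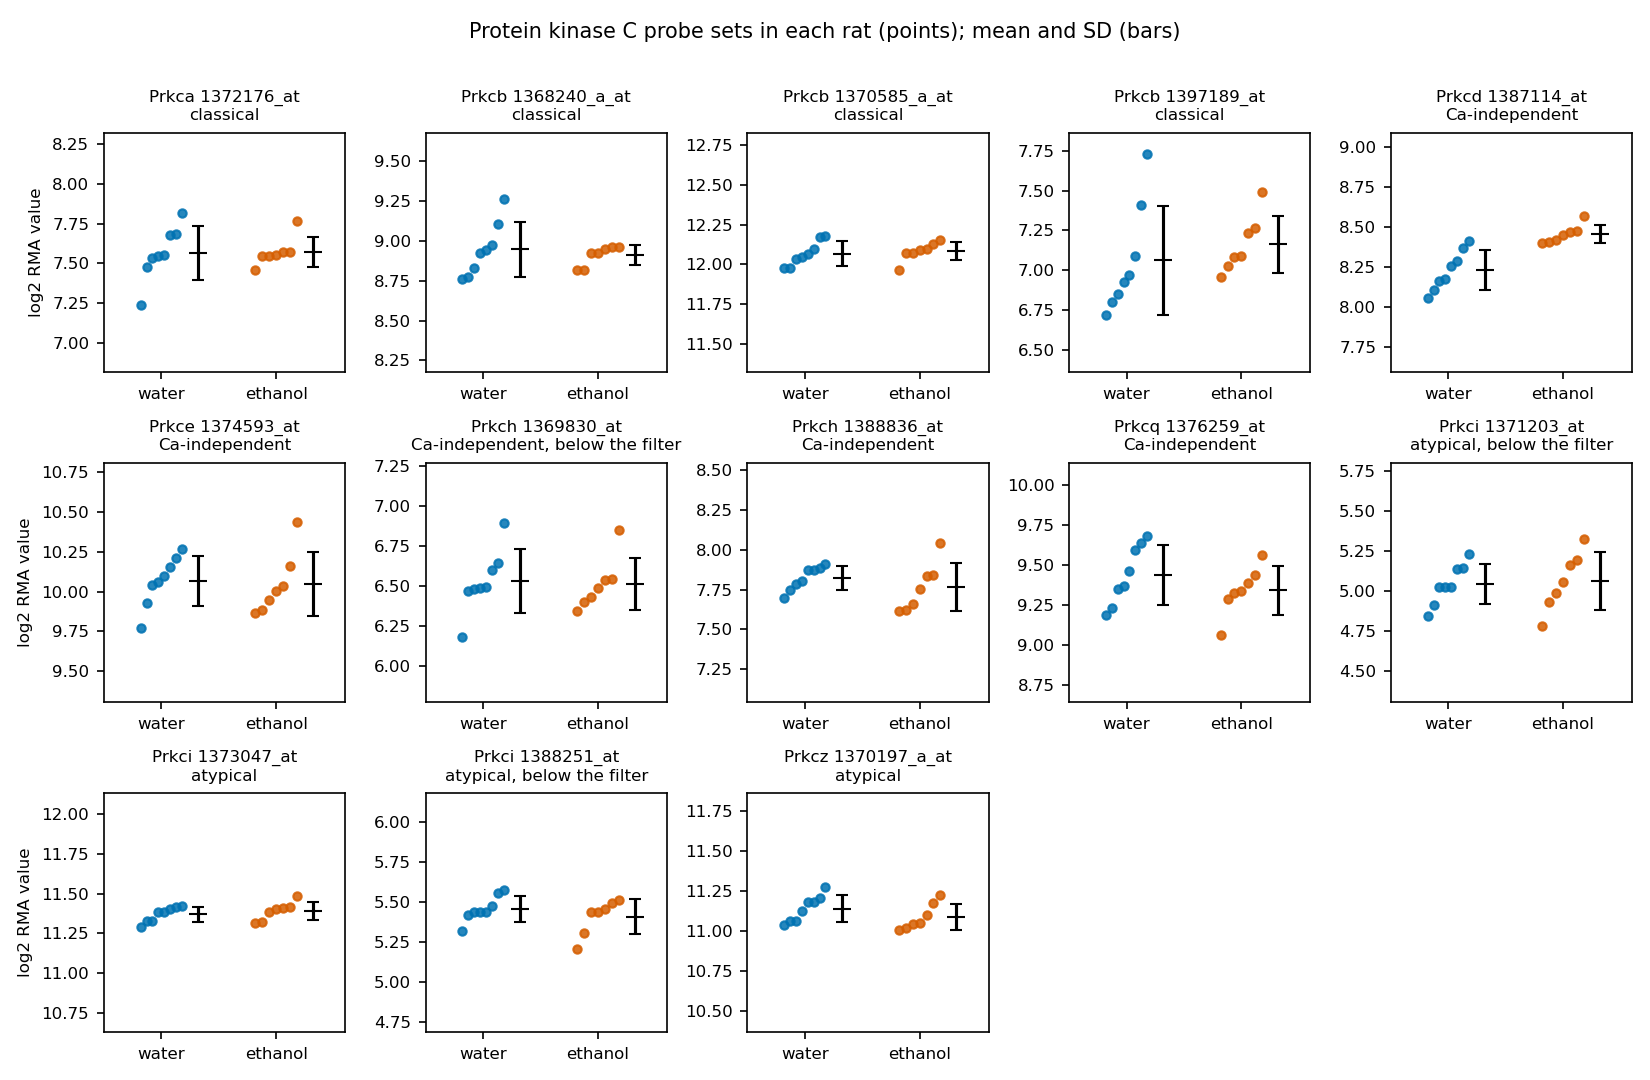
Log2 RMA value (vertical axis, the same 1.5-unit span in every panel) of each of the 13 protein kinase C probe sets in 8 water rats (blue) and 7 ethanol rats (orange). Points are rats, sorted by value within a group, and black bars are the mean and SD. The ethanol rats stand highest against the water rats in Prkcd, and the groups cover the same range in most other panels.

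Prkcd, the calcium-independent delta isoform, was the member that rose. In ethanol rats its log2 values ran from 8.40 through a median of 8.45 to 8.57, and in water rats from 8.06 through 8.21 to 8.42. All 7 ethanol rats lay above the water mean and 5 of them above every water rat, while 1 water rat, number 6, lay inside the ethanol range. The other 7 water rats lay below every ethanol rat. Means were 8.46 ± 0.06 (SD, n = 7) and 8.23 ± 0.13 (SD, n = 8), a 1.17-fold difference (log2 0.23, SE 0.05, 95% interval 0.12 to 0.34, limma adjusted p = 0.0493). Of all kept probe sets, 3.52% differed by this much or more, and the median size among the called ones was 0.33 log2 units.

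The Prkcd call stood at the edge of the threshold. Ranked by p, it was the 173rd and last of the 173 probe sets called on the array, and the next had an adjusted p of 0.0524. The difference stayed positive in each of 24 refits, between 0.14 and 0.25 log2 units. The call ended in 13 of 15 fits that left out 1 array, with adjusted p up to 0.110, and held without water rat 4 or water rat 6 (adjusted p = 0.0352 and 0.0257). Whether the Prkcd difference was larger than that of the other isoforms was not tested.

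**Figure D2:**
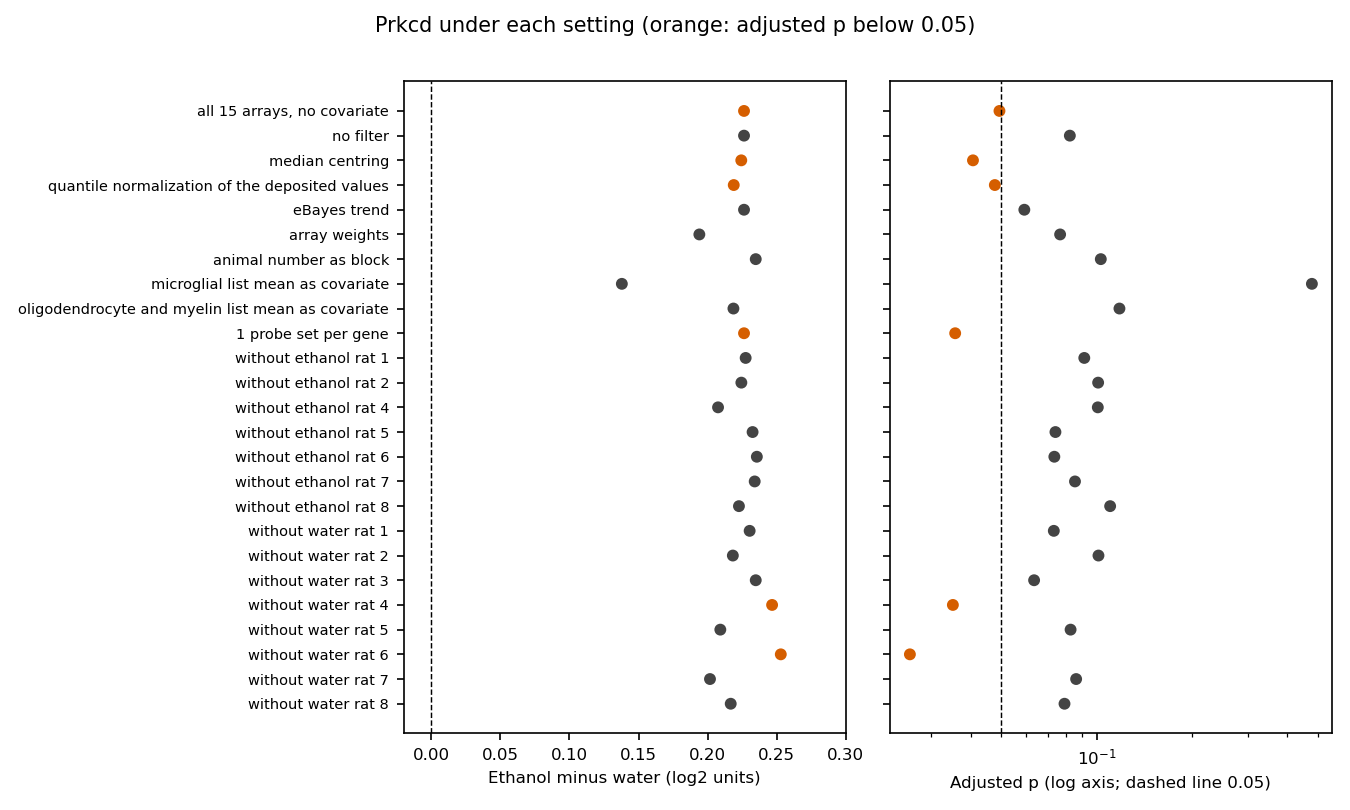
Ethanol minus water difference of Prkcd in log2 units (left) and its Benjamini-Hochberg adjusted p on a log axis (right) for all 15 arrays and for each alternative fit that kept the probe set. The difference stays between 0.14 and 0.25 on the left, while on the right most points lie above the dashed line at 0.05.

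Marker lists of other cell types differed between the same groups, microglia (the immune cells of the brain) upward and oligodendrocytes (which make myelin) downward. All 16 measured genes of an 18-gene microglial list had higher means in ethanol rats, and 7 of them rose: Gpr34 (log2 0.89), Tyrobp (0.41), Fcer1g (0.40), Ptprc (0.38), Ctss (0.36), Trem2 (0.32) and Laptm5 (0.30). None fell, and the list median was 0.31 log2 units, beside 0.0017 over all measured genes. Of all measured genes, 1.14% passed in either direction. The marker lists were chosen with earlier results of these data known, so their counts are not set against that share as evidence. Leaving out 1 array ended the call of Ptprc in 13, of Ctss in 12 and of Laptm5 in 10 of 15 fits, while Gpr34, Fcer1g, Tyrobp and Trem2 kept theirs in all 15. The defining markers Aif1 (log2 0.37), P2ry12 (0.27), Csf1r (0.22), Cx3cr1 (0.19), Tmem119 (0.059) and Itgam (0.056) were detected and did not pass. The list mean lay between 9.46 and 9.74 log2 units in ethanol rats and between 9.09 and 9.49 in water rats, with 1 water rat, number 5, inside the ethanol range. Among the controls, rats 7 and 8 had the lowest microglial means, 9.10 and 9.09, with Prkcd at 8.06 and 8.16 log2 units. Water rat 6, with the highest Prkcd value of the controls, had their second highest microglial mean, 9.39, and water rat 5, with the highest mean, had Prkcd at 8.11.

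Of 16 measured oligodendrocyte and myelin genes, 15 had lower means in ethanol rats (list median log2 -0.15). Of these, 5 fell: Ugt8 (log2 -0.69), Fa2h (-0.43), Mal (-0.39), Olig1 (-0.28) and Cldn11 (-0.25). Their limma adjusted p values were 0.00413, 0.0210, 0.0369, 0.0452 and 0.0369 in that order. Whether these 5 calls hold in the other fits was not examined. Among all measured genes, 1.14% passed in either direction. Opalin was the 1 gene with a higher mean (log2 0.20) and did not pass. Mog (log2 -0.28), Mag (-0.19), Cnp (-0.14), Myrf (-0.052), Sox10 (-0.052) and Mbp (-0.034) did not pass either. The list mean lay between 12.24 and 12.57 log2 units in ethanol rats, each below the water mean, and between 12.45 and 12.93 in water rats. No gene of the remaining marker lists passed. Of 10 genes of choroid plexus and meninges on the array, 4 were kept: Col1a2, Igf2, Dcn and Igfbp2. Their median was log2 -0.45. The other 6, Ttr among them, fell below the filter. The 10 measured genes of dopamine neurons had a median of 0.16, with all 10 above 0. With the microglial mean as a covariate the Prkcd difference was 0.14 log2 units (limma adjusted p = 0.478), and with the oligodendrocyte and myelin mean it was 0.22 (adjusted p = 0.118). Both means themselves differed between the groups, with 1 and 3 water rats inside the ethanol range. These fits therefore cannot separate a marker mean from the ethanol and water grouping. The part that these cell types play in the Prkcd difference was not tested, and in such bulk tissue a change in the number of cells of a type cannot be told apart from one in RNA per cell.

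**Figure D3:**
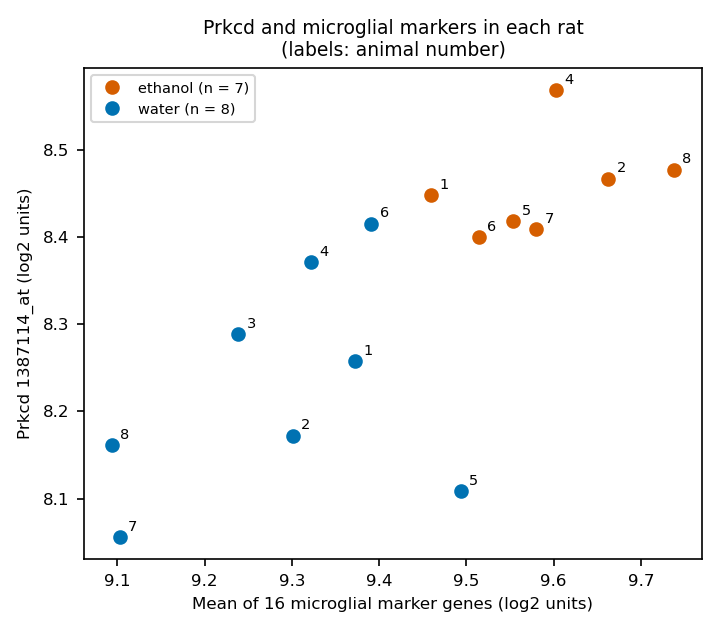
Prkcd (vertical axis, log2 units) against the mean of 16 microglial marker genes (horizontal axis, log2 units) in each rat, orange for ethanol and blue for water, labelled with the animal number. Ethanol rats lie at the upper right, and water rat 5 has a microglial mean of 9.49 with a Prkcd value of 8.11.

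The other calcium-independent isoforms did not pass. Prkce, the epsilon isoform, ran from 9.86 through 10.005 to 10.43 log2 units in ethanol rats and from 9.77 through 10.08 to 10.26 in water rats. Ethanol rat 5 was above every control, and the other 6 ethanol rats lay within the control range. The difference was -0.019 log2 units (95% interval -0.20 to 0.16, limma adjusted p = 0.948). Prkcq, the theta isoform, best known from signalling at the T cell receptor, gave the most negative difference of the family. It ran from 9.06 through 9.34 to 9.56 log2 units in ethanol rats and from 9.19 through 9.42 to 9.68 in water rats. Its difference was -0.096 log2 units (95% interval -0.27 to 0.079, limma adjusted p = 0.670), and 2 of 7 ethanol rats lay above the water mean.

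Prkch, the eta isoform, was measured by a kept and a dim probe set. The kept set (1388836_at) ran from 7.62 through 7.76 to 8.04 log2 units in ethanol rats and from 7.70 through 7.84 to 7.91 in water rats, so the water rats lay wholly inside the wider ethanol range. Its difference was -0.055 log2 units (95% interval -0.18 to 0.070, limma adjusted p = 0.743). The dim set (1369830_at) averaged 6.51 log2 units in ethanol and 6.53 in water rats, a difference of -0.018. Deviations of both sets from their group means had a Pearson r of 0.40 over the 15 arrays.

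Neither classical isoform passed. Prkca ran from 7.46 through 7.55 to 7.77 log2 units in ethanol rats and from 7.24 through 7.55 to 7.82 in water rats, so the ethanol rats lay inside the control range. Its difference was 0.0090 log2 units (95% interval -0.14 to 0.15, limma adjusted p = 0.971). Prkcb, whose alternative last exons give the beta I and beta II proteins, was measured by 3 kept probe sets, and which of those exons each set reads is not given in the sources used here. The set 1370585_a_at ran from 11.97 through 12.09 to 12.15 log2 units in ethanol rats and from 11.98 through 12.06 to 12.18 in water rats, with a difference of 0.016 (95% interval -0.068 to 0.099).

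The remaining Prkcb sets spread more widely among the controls. The set 1368240_a_at ran from 8.82 through 8.93 to 8.96 log2 units in ethanol rats and from 8.76 through 8.93 to 9.26 in water rats, with a difference of -0.038 (95% interval -0.18 to 0.10). The set 1397189_at, just above the filter, ran from 6.96 through 7.09 to 7.49 log2 units in ethanol rats and from 6.72 through 6.95 to 7.73 in water rats. Its difference of 0.10 log2 units had the widest interval of the family, -0.17 to 0.38 (limma adjusted p = 0.794). Without water rat 3, its highest control, the difference was 0.20 log2 units, and without ethanol rat 5 it was 0.048 (adjusted p = 0.387 and 0.919). The Prkcb sets thus gave differences of either sign, each within its error. Their deviations correlated at 0.50 and 0.49 between 1370585_a_at and the other sets and at -0.063 between those other sets, over arrays that share their RNA and normalization.

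The atypical isoforms did not pass either. Prkci, the iota isoform, binds Par6 in the complex that sets cell polarity. Its bright set (1373047_at) ran from 11.32 through 11.40 to 11.49 log2 units in ethanol rats and from 11.29 through 11.38 to 11.42 in water rats. The difference of 0.022 log2 units had the narrowest interval of the family, -0.049 to 0.093 (limma adjusted p = 0.830), so changes beyond 1.07-fold lay outside it. The dim Prkci sets averaged 5.06 and 5.41 log2 units in ethanol and 5.04 and 5.46 in water rats, with means above those of 11.3% and 18.9% of probe sets on the array. Prkcz, from which the brain also makes the short constitutively active kinase PKM zeta, ran from 11.003 through 11.05 to 11.22 log2 units in ethanol rats and from 11.03 through 11.15 to 11.27 in water rats. Its difference was -0.053 log2 units (95% interval -0.15 to 0.042, limma adjusted p = 0.666). Whether the single set reads PKM zeta, the full kinase or both is not given in the sources used here.

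**Figure D4:**
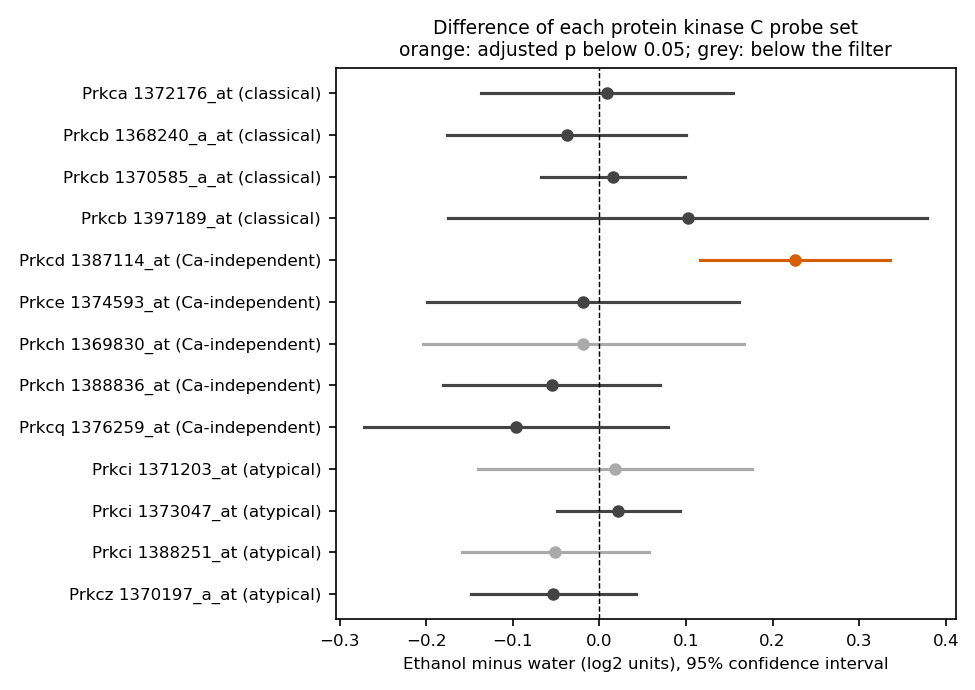
Ethanol minus water difference in log2 units (horizontal axis) with its 95% confidence interval for each of the 13 probe sets. The interval of Prkcd (orange) runs from 0.12 to 0.34, and the intervals of the other 12, including the 3 below the filter in grey, contain 0.

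A miss of the threshold does not show that these transcripts stayed the same, and the intervals bound what could have been seen. Over the 9 kept sets that did not pass, adjusted p ran from 0.666 to 0.971, with 4 differences above 0 and 5 below. Leaving aside the dim Prkcb set 1397189_at, the 95% intervals of the other 8 ended at -0.27 and 0.16 log2 units. Pooled within-group SDs ran from 0.052 log2 units for Prkci 1373047_at, smaller than in all but 4.85% of kept probe sets, to 0.28 for Prkcb 1397189_at, larger than in 96.1% of them. The ethanol rats had the smaller SD in 7 of the 10 kept member sets, and in 67.5% of all kept probe sets. In 6 of the 13 member sets at least 2 rats shared exactly the same deposited value. Prkci 1388251_at, for example, stood at 5.44 in 5 rats. Such ties occurred in 47.0% of all probe sets, dim ones included. Prkcd had none.

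From rat to rat the isoforms varied with little in common. With the brightest kept set of each gene, the 28 pairs of isoforms had Pearson r between deviations from the group means of -0.50 to 0.49 over 15 arrays, with a median of 0.036. Prkca and Prkcb were the most alike (0.49) and Prkcb and Prkcz the most opposed (-0.50). Among the 10248 other genes measured, those most like Prkcd were the interferon-induced Mx2 (r = 0.81) and the interferon regulator Irf7 (0.81), followed by the DNA demethylase Tet1 (0.77). None of these 3 passed the test between the groups: Mx2 was at log2 0.0074, Irf7 at -0.071 and Tet1 at -0.056.

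The genes most like Prkce were LOC102547703 (r = 0.96), Lgalsl (0.92) and the neuronal chloride exporter Slc12a5 (0.92). Those most like Prkcz were the dynein heavy chain Dync1h1 (0.91), the citrate carrier Slc25a1 (0.90) and Aatf (0.90). Prkcb went with Pnpla8 (0.85), Eps8 (0.84) and the synaptic calcium sensor Syt1 (0.83), and Prkcq with Tsc2 (0.85), Lamb1 (0.84) and Cdk12 (0.80). Prkca was nearest to Wdr26 (0.83), Pwwp2a (0.78) and Klhl42 (0.77), Prkch to Rorb (0.81), Tstd1 (0.79) and Gcsh (0.78), and Prkci to Gigyf1 (0.78), Gpatch8 (0.77) and Taok2 (0.71). Each of these is among the 3 highest of 10248 values over 15 arrays that share their normalization, so it orders the genes and is no test.

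Genes that feed, hold or read protein kinase C were counted in 7 lists. Of 81 listed genes, 72 were on the array with 1 symbol, and 64 of them passed the filter and were measured. Of the 64, 1 fell and none rose, or 1.56%, beside 1.14% of all measured genes. The median difference over the 64 was -0.0079 log2 units. At an unadjusted p below 0.05 (limma) stood 14 of the 64, or 21.9%, beside 12.4% of all measured genes. The lists were chosen with earlier results of these data known, so neither share is evidence about the pathway.

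The gene that fell was Plcd4, a phospholipase C that makes diacylglycerol. Its log2 values ran from 8.29 through 8.39 to 8.49 in ethanol rats and from 8.41 through 8.70 to 8.80 in water rats, so the groups overlapped at their edges. The difference was -0.26 log2 units (SE 0.06, limma adjusted p = 0.0388). The call ended in 12 of 15 fits that left out 1 array (adjusted p up to 0.0958). None of the other 10 measured genes of this production list passed, with Plcd1 next at log2 0.13 (adjusted p = 0.304), and the list median was 0.0082.

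None of the genes in the other 6 lists passed. Among enzymes that remove diacylglycerol (10 measured, list median log2 -0.025), the kinase Dgka was at -0.19 (limma adjusted p = 0.173) and the lipase Daglb at -0.12. Among genes that mature or shut off the kinases (8 measured, list median -0.00049), Mlst8 was at log2 0.10 and Rictor, the core of mTORC2, at 0.092. Among anchors (8 measured, list median -0.010), Fez1 was at log2 -0.13 and Pick1, which binds the alpha isoform, at 0.11. Among partners of the atypical isoforms (8 measured, list median -0.016), Sqstm1, the p62 scaffold, was at log2 0.10 and the polarity protein Pard3 at -0.13. Among substrates and related regulators (10 measured, list median 0.0021), the phosphatase inhibitor Ppp1r14c was at log2 -0.15 and the cytoskeletal adducin Add1 at -0.065. Among related kinases and other diacylglycerol receptors (9 measured, list median -0.043), protein kinase D2 (Prkd2) was at log2 -0.29 (adjusted p = 0.146) and the chimaerin Chn2 at -0.18.

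**Figure D5:**
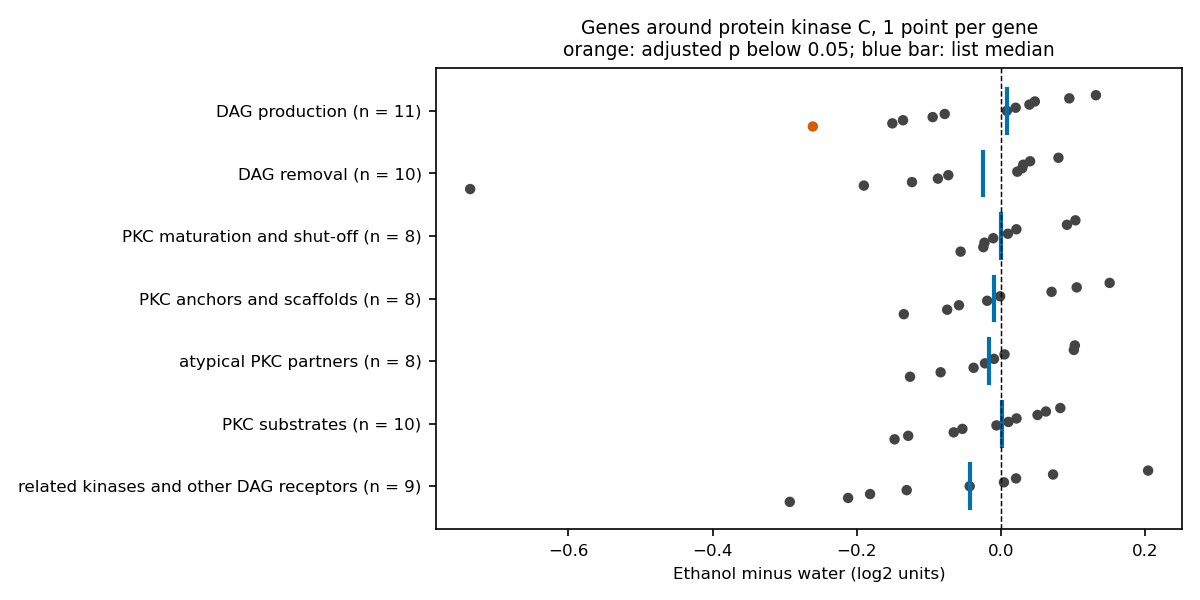
Ethanol minus water difference in log2 units (horizontal axis) of each measured gene in 7 lists of genes around protein kinase C (DAG is diacylglycerol), with blue bars at the list medians. Plcd4 (orange, log2 -0.26) is the called gene, and the point farthest to the left is Dgkb at -0.74.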

How the data were processed

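The deposited values, 1 column for each of 15 arrays, are on a log2 scale and were made by the authors with RMA, per the submitters' processing notes, which corrects background, equalises the arrays and gives 1 value per probe set. RMA removes any shift shared by most transcripts and compresses differences of dim probe sets. RMA's version is not given in the sources used here. All 31099 probe sets were read, and 0 value columns were unused. The 57 control sets were left out. The platform annotation gave 20837 of the other 31042 sets 1 symbol, 425 several and 9780 none, and the Entrez numbers of all 8 members matched RefSeq.

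Probe sets whose mean reached the 40th percentile were kept (18625). One linear model on ethanol against water, two-sided and without covariates, was fitted to them together (limma 3.58.1 under R 4.3.3, with eBayes), with Benjamini-Hochberg adjustment over all of them and a threshold of 0.05. Dim members were fitted without the filter. For lists, a gene was represented by its brightest kept set (10256 genes). Named genes were the members, every called gene and the 2 with the smallest p of each pathway list, the stated markers, and the 3 genes most like each member. The members and lists were chosen with earlier results of these data known. The fit was tested on simulated data. Alternatives were 2 other filters, 2 scalings, a trended prior, array weights, the animal number as a block, 2 marker means as covariates, 1 probe set per gene, and each array left out in turn. Same-numbered rats of the groups were not treated as pairs: deviations of 4 of 7 such pairs correlated above 0.1, and the others did not. No batch is named in the labels. Protein and probe sequences and genome coordinates were not used here.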

Additional observations from a re-analysis of the deposited data

Results flagged for a closer look

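In 3 of the 26 combinations of a member probe set and a group, 1 rat stood apart from the rest of its group (Dixon's test, 95% critical value). Chance flags about 1 in 20 such groups. Ethanol rat 5 had the highest Prkca value of its group, 7.77 log2 units against 7.57 for the next, and ethanol rat 6 the lowest Prkcb 1370585_a_at value, 11.97 against 12.07. Ethanol rat 8 had the highest value of the dim Prkch set 1369830_at, 6.85 against 6.54. No member call rests on these values: without ethanol rat 5 the Prkca difference was -0.023 log2 units (limma adjusted p = 0.924).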

How the results depend on the processing

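The number of kept probe sets called across the array, 173 with all 15 arrays, was 59 in the fit with the replicate block (the animal number), 279 with the microglial mean and 293 with the oligodendrocyte and myelin mean as covariate. It ran from 100 (without ethanol rat 7) to 180 with 1 array left out, and was 102 without ethanol rat 8. Of the arrays, 1 ethanol rat in 7 correlated best with its own number.

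The count of called members, 1, became 0 without the filter, with the stricter filter (which removed Prkcd), the trended prior, array weights, the replicate block and either covariate, and ran from 0 to 1 with 1 array left out. Prkcd itself lost its call at 0.23 log2 units without the filter (adjusted p = 0.0823) and with the trended prior (0.0591), at 0.19 with array weights (0.0767), at 0.23 with the replicate block (0.103), and at 0.14 and 0.22 with the microglial and oligodendrocyte covariates (0.478 and 0.118). It kept the call with either rescaling and with 1 probe set per gene (adjusted p = 0.0407, 0.0477 and 0.0358). With 1 array left out its difference ran from 0.20 to 0.25. The count of called pathway genes, 1, was 0 without the filter and with the replicate block and 2 with the microglial covariate, and ran from 0 to 1 with 1 array left out. Plcd4 itself lost its call without the filter, with the replicate block and with the microglial and oligodendrocyte covariates (limma adjusted p = 0.0589, 0.127, 0.0718 and 0.164), so the genes called with those covariates were others, Fez1 among them with the microglial one (adjusted p = 0.0488). The replicate block also ended the calls of Tyrobp, Trem2, Laptm5 and Ctss (adjusted p = 0.0817, 0.138, 0.154 and 0.148). Ctss further lost its call without the filter and with quantile normalization (limma adjusted p = 0.0585 and 0.0549). Ptprc lost it without the filter (0.0626) and Laptm5 with array weights (0.0658). In no setting did another member pass.

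Differences of 7 member sets kept their sign in every fit. Those that turned were Prkca (-0.0076 with quantile normalization, and -0.037 to 0.045 with 1 array left out), Prkcb 1368240_a_at (-0.065 to 0.0071 with 1 array left out), Prkcb 1397189_at (-0.055 with the microglial covariate, 0.20 with the replicate block at adjusted p = 0.214), Prkce (0.25 with that covariate, and -0.083 to 0.012 with 1 array left out), Prkch 1369830_at (0.022 with the oligodendrocyte covariate, and -0.074 to 0.033) and Prkci 1371203_at (-0.029 with that covariate, and -0.025 to 0.065). Outside the family, Ppp1r14c was at 0.045 with the microglial covariate, and Itgam ran from -0.0082 to 0.095 with 1 array left out. The causes were not tested. The number of arrays and the dim signal of the 3 sets below the filter limit what could be seen.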

Other observations

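Dgkb, which encodes the diacylglycerol kinase beta that removes the lipid activating the classical and calcium-independent isoforms, split the ethanol rats (it was singled out after its values were seen). Ethanol rats 1 and 2 stood at 6.66 and 6.55 log2 units, while the other 13 rats lay between 9.04 and 10.51. The ethanol mean was 8.89 ± 1.62 (SD, n = 7) and the water mean 9.62 ± 0.55 (SD, n = 8), and the difference of -0.74 log2 units did not pass (SE 0.54, limma adjusted p = 0.614). Its pooled SD was larger than that of 99.9% of kept probe sets. Among the family, these 2 rats had the lowest values of all 15 for the dim Prkci set 1388251_at, 5.31 and 5.21 log2 units against 5.32 for the next. Ethanol rat 1 was also narrowly the lowest of all for Prkch 1388836_at (7.617, with ethanol rat 6 at 7.619) and Prkcz (11.003, with ethanol rat 5 at 11.016). Their Prkca, Prkcb, Prkcd, Prkce and Prkcq values lay inside the range of the other rats, as did those of the remaining Prkci and Prkch sets. The member sets named here were also picked after their values were seen, and a link between Dgkb and the family was not tested.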
